A study of Danio rerio with 8 samples.

Results

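Embryonic globin genes and other genes of the red cell were followed in whole zebrafish larvae that lacked a working copy of upf1. The 8 genes were chosen by name, with earlier results of these data known. They were the embryonic globins hbbe1.1, hbbe1.2, hbbe2 and hbae3 and the red cell genes alas2, slc4a1a, rhag and nt5c2l1. By symbol, 7 of the 8 were found among 31953 genes counted, and all 7 were among the 23680 genes with enough counts to test. The name hbbe2 matched no gene identifier, so no value is printed under it; 7 identifiers carry the name HBE1 in the table of gene names, and whether one of them is hbbe2 could not be settled. Both groups were larvae of the TLEK strain, taken whole at 5 days after fertilization for polyA RNA, with no treatment labelled. One group of 4 libraries was wild type, and the other 4 libraries came from larvae with a nonsense mutation on both copies of upf1. The gene upf1 encodes an RNA helicase of nonsense-mediated decay, the pathway that removes transcripts with a premature stop codon, and the mutation is carried in every cell of the larva. No allele is named in the labels. Neither the number of larvae in a library nor the clutch of a replicate is given, so the p-values describe library-to-library spread, which may be technical.

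Haemoglobin is built from alpha and beta globin chains that each hold a haem group, and the fish switches from embryonic to adult globin genes as it grows. Primitive red cells form early in the embryo, circulate through larval life and keep a nucleus in fish. Haem is made partly in the mitochondria, beginning with the enzyme that alas2 encodes. The red cell membrane is rich in an anion exchanger, band 3, and in proteins of the Rh family, which are tied to a skeleton of spectrin and ankyrin.

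Gene counts summed to between 75335048 and 96104507 per library. Levels are given as CPM, counts divided by library size after scaling for library composition, which are not corrected for gene length and are compared only between libraries. All 9 matched markers of red cells were counted in all 8 libraries, as were the matched markers of thrombocytes, macrophages, neutrophils, endothelium, liver and skeletal muscle. Mutant 2 stood apart: its summed level over the 2 matched macrophage markers was 0.480 CPM, against 16.9 to 19.8 CPM in wild types. Its level of cpa5, a carboxypeptidase gene in the neutrophil list, was 30.7 CPM. Other mutants had 972 to 1080 CPM of cpa5 and wild types 1292 to 2221 CPM. Mutant 2 was the lowest library for 2 of the 8 tested genes of that list, cpa5 and mpx. The upf1 mRNA was 285 ± 7.51 CPM in mutants and 129 ± 4.35 CPM in wild types (SD, n = 4), which does not check a nonsense allele. Because RNA came from whole larvae, fewer cells of a type and less RNA per cell cannot be told apart.

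All 7 measured genes averaged lower in upf1 mutants, and for 5 of them the difference did not pass the test. Over all genes tested, 12041 of 23680 had a log2 fold change below 0. The beta globin gene hbbe1.2 and the nucleotidase-like gene nt5c2l1 fell, to 53.3% and 61.1% of the wild-type mean. Thus 2 of 7 passed an adjusted p of 0.05 as lower and 0 as higher, where 5.11% of all genes tested were lower and 9.10% were higher (edgeR quasi-likelihood test, Benjamini-Hochberg adjustment over all genes). These shares depend on scaling: 1211 genes were lower and 2156 higher, but 607 and 4263 when library totals alone were used. By unadjusted p under 0.05, 4 of the 7 were lower and 0 higher, against 13.2% and 16.2% of all genes. The DESeq2 Wald test called 3 lower and 0 higher, beside 2105 and 2724 of all 23680 genes. With limma voom 2 were lower and 0 higher, beside 1270 and 2164 of all genes. The 4 mutants lay wholly below the 4 wild types for 3 of the 7, hbbe1.2, rhag and nt5c2l1, against 8.71% of all genes. The median log2 fold change of the 7 was -0.44, beside -0.01 over all genes tested.

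**Figure D1:**
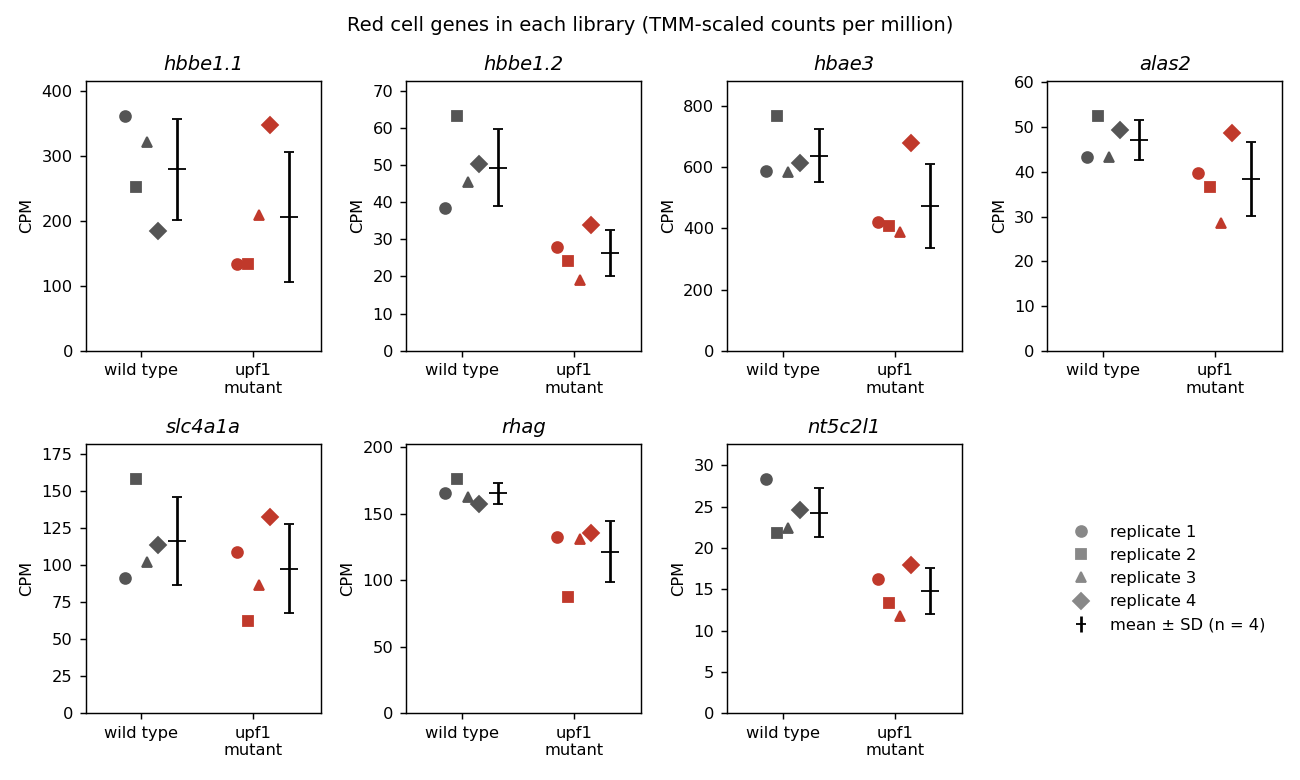
CPM of the 7 measured genes in each library, with points shaped by replicate number and black bars giving mean ± SD over 4 libraries per genotype. Mutants lie below all wild types for hbbe1.2, rhag and nt5c2l1, and mutant replicate 4 is the highest mutant in each of the 7 plots.

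Among the beta globins, hbbe1.2 (ENSDARG00000090689) had levels of 27.9, 24.2, 19.1 and 33.8 CPM in mutants 1 to 4, against 38.4, 63.2, 45.3 and 50.4 CPM in wild types 1 to 4. The highest mutant, replicate 4, was below the lowest wild type, replicate 1, so the groups did not overlap. The means were 26.3 ± 6.19 and 49.3 ± 10.5 CPM, a log2 fold change of -0.91 (SE 0.193, 95% interval -1.34 to -0.47, adjusted p = 0.0148). Leaving out any 1 library kept the call, with adjusted p between 0.0109 and 0.0409 in edgeR.

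The gene hbbe1.1 (ENSDARG00000089963) encodes a beta globin of the same embryonic type, and close copies such as these may share reads, so how counts divide between them is uncertain. Its levels were 134, 133, 209 and 347 CPM in mutants 1 to 4, against 361, 252, 321 and 184 CPM in wild types 1 to 4. The groups overlapped, with mutant 4 above 3 of the 4 wild types and wild type 4 below mutants 3 and 4. The means were 206 ± 101 and 279.7 ± 78.0 CPM (log2 fold change -0.44, SE 0.325, 95% interval -1.17 to 0.29, adjusted p = 0.407). Its coefficient of variation in mutants, 48.9%, was the largest of the 7 genes. Without mutant 4 its log2 fold change was -0.81, still short of the threshold (edgeR adjusted p = 0.0815). Whether hbbe1.1 and hbbe1.2 differed in their response was not tested, and their intervals overlapped.

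Summed over hbbe1.1 and hbbe1.2, which sets aside any exchange of reads between them, the level was 162, 157, 228 and 381 CPM in mutants 1 to 4. The same sum was 399.7, 316, 366 and 235 CPM in wild types 1 to 4. It overlapped between genotypes through mutant 4, while the other 3 mutants were below all wild types.

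For the alpha globin gene hbae3 (ENSDARG00000079305), the values were 419.8, 408, 389 and 679.8 CPM in mutants 1 to 4, against 587, 767, 584 and 614 CPM in wild types 1 to 4. Mutants 1 to 3 were below every wild type, and mutant 4 was above 3 of the 4 wild types. With all libraries the means were 474 ± 138 and 638 ± 86.9 CPM (log2 fold change -0.43, SE 0.188, 95% interval -0.85 to -0.01, adjusted p = 0.164). Without mutant 4 the log2 fold change was -0.65 and passed (edgeR adjusted p = 0.0138). This was the 1 of 8 omissions under which hbae3 was called, so that 3 of 7 genes were then lower, beside 987 of all 23870 tested.

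Counts of hbbe1.1, hbbe1.2 and hbae3 together made up 0.0613%, 0.0625%, 0.0647% and 0.108% of all gene counts in mutants 1 to 4. Their share was 0.0946%, 0.0967%, 0.0929% and 0.0814% in wild types 1 to 4. Thus 3 mutants held a smaller globin share than any wild type, and mutant 4 held the largest share of the 8 libraries. These shares were taken without scaling for library composition. After scaling, hbae3 was at 767 CPM in wild type 2 and 679.8 CPM in mutant 4. The scaled sum of hbbe1.1 and hbbe1.2 was 316 CPM in wild type 2 and 381 CPM in mutant 4. Together these globins were then higher in wild type 2, so the top place of mutant 4 depends on leaving out the scaling.

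Of the genes for haem and the red cell membrane, alas2 (ENSDARG00000038643) encodes the red cell form of the first enzyme of haem synthesis. Its mRNA was at 39.8, 36.5, 28.6 and 48.6 CPM in mutants 1 to 4, against 43.4, 52.4, 43.3 and 49.3 CPM in wild types 1 to 4. As for hbae3, 3 mutants were below all wild types, and mutant 4 lay among them. The log2 fold change was -0.30 (SE 0.149, 95% interval -0.63 to 0.04, adjusted p = 0.223).

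The gene slc4a1a (ENSDARG00000012881) encodes band 3, which exchanges chloride for bicarbonate across the red cell membrane. Mutants 1 to 4 had 109, 62.1, 86.5 and 133 CPM of slc4a1a, against 91.0, 158, 102 and 113 CPM in wild types 1 to 4. The groups were interleaved, with mutant 2 lowest and wild type 2 highest. Of the 7 log2 fold changes it was the nearest to 0, at -0.25 (SE 0.240, 95% interval -0.79 to 0.29, adjusted p = 0.532). Over the 8 omissions of a library it ran from -0.43 without mutant 4 to -0.07 without wild type 2, and was -0.08 without mutant 2.

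The gene rhag (ENSDARG00000019253) encodes the Rh-associated glycoprotein, a membrane channel for ammonia. It had 132, 87.7, 131 and 136 CPM in mutants 1 to 4, against 166, 176, 162 and 157 CPM in wild types 1 to 4. The groups did not overlap, wild types had a coefficient of variation of 4.91%, and mutant 2 was far below the other 3 mutants. The log2 fold change of -0.44 (SE 0.135, 95% interval -0.75 to -0.14) missed the threshold with all libraries (edgeR adjusted p = 0.0578). Without mutant 2 the log2 fold change was -0.31 and passed (edgeR adjusted p = 0.0327). Then 3 of 7 genes were lower, beside 1094 of all 23896 tested. With all libraries DESeq2 also called rhag lower (adjusted p = 0.0149).

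The gene nt5c2l1 (ENSDARG00000034852) is related to cytosolic nucleotidases, which remove phosphate from nucleotides. Levels of 16.3, 13.4, 11.8 and 17.9 CPM in mutants 1 to 4 stood against 28.3, 21.8, 22.4 and 24.6 CPM in wild types 1 to 4. Every mutant was below every wild type. The means were 14.8 ± 2.76 and 24.3 ± 2.97 CPM, a log2 fold change of -0.71 (SE 0.144, 95% interval -1.03 to -0.39, adjusted p = 0.0121). The call held without any 1 library (edgeR adjusted p 0.00954 to 0.0354).

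**Figure D2:**
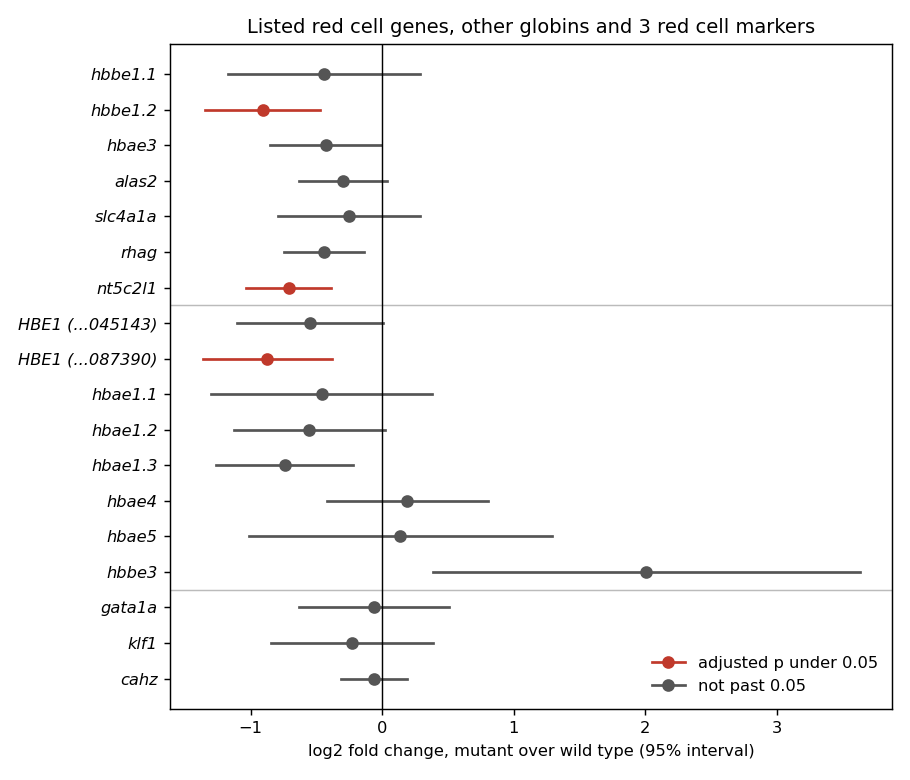
Log2 fold changes of mutants over wild types with 95% intervals for the 7 listed genes (top), other alpha and beta globin genes (middle) and 3 further red cell genes (bottom), red where the adjusted p is under 0.05. The genes in red are hbbe1.2, nt5c2l1 and one of 2 genes named HBE1 (labelled by the last digits of their identifiers); the intervals of hbae3, rhag, hbae1.3 and hbbe3 also exclude 0 without an adjusted p under 0.05.

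Mutant 4 was the highest of the 4 mutants for 7 of 7 genes, and mutant 1 came next for 6 of 7. The lowest place fell to mutant 2 for 3 genes and to mutant 3 for 4. Wild types had a less uniform order: replicate 2 was highest for 5 of 7 and lowest for 1. Replicate 4 was second for 5 and lowest for 2, and replicate 1 was highest for 2 and lowest for 2. Averaged over the 7 genes, each centred on its own mean, the log2 level was -0.25, -0.55, -0.44 and 0.19 in mutants 1 to 4, against 0.23, 0.42, 0.21 and 0.19 in wild types 1 to 4. By this average mutant 4 stood level with wild type 4, and the other 3 mutants were below all wild types. For how many of all genes mutant 4 was the highest mutant was not counted. Among mutants it also had the highest sum of liver markers (5906 CPM, against 2913 to 4436 CPM). The same held for the listed red cell enzymes (4231 CPM, against 3269 to 3585 CPM). Skeletal muscle markers were highest in mutant 3 (74591 CPM) and listed membrane and skeleton genes in mutant 1 (1807 CPM).

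The coefficient of variation between libraries was larger in mutants than in wild types for each of the 7 genes, a difference that was not tested. It ran from 18.6% for nt5c2l1 to 48.9% for hbbe1.1 in mutants and from 4.91% for rhag to 27.9% for hbbe1.1 in wild types. For hbae3 it was 29.0% against 13.6%, and for alas2 21.6% against 9.61%. How many of all genes tested had a larger coefficient in mutants was not counted. Ranked among all genes tested, that of hbbe1.2 stood at percentile 73.2 in mutants and 72.8 in wild types. That of rhag stood at 64.0 and 8.11. Of the HBE1 genes, ENSDARG00000045143 varied less in mutants (24.3% against 29.1%) and ENSDARG00000087390 more (29.6% against 19.1%). Mutant 4, the highest mutant for all 7, and mutant 2, low in macrophage markers and cpa5, are both among the 4 mutant libraries. Their part in the spread was not tested.

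The balance between related globin genes differed between libraries within each genotype. The ratio of hbbe1.1 to hbbe1.2 counts was 4.79, 5.49, 10.9 and 10.3 in mutants 1 to 4, against 9.40, 4.00, 7.08 and 3.65 in wild types 1 to 4. High and low ratios occurred in both genotypes. The alpha globin pair hbae1.1 and hbae1.2 gave ratios of 1.04, 0.501, 1.61 and 1.11 in mutants and 1.41, 0.723, 1.36 and 0.645 in wild types, in the same order of replicates. Mutants 3 and 4 and wild types 1 and 3 had the 4 highest values of both ratios. Ratios of counts between genes also reflect gene length and shared reads, so only their differences between libraries are described.

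The ratio of hbae3 to hbbe1.2 counts was 15.0, 16.9, 20.3 and 20.1 in mutants 1 to 4, against 15.3, 12.1, 12.9 and 12.2 in wild types 1 to 4. All mutants were above wild types 2 to 4, and mutant 1 was just under wild type 1. The ratio of hbae3 to alas2 overlapped between genotypes, at 12.3 ± 1.72 in mutants and 13.5 ± 0.888 in wild types. So did that of slc4a1a to rhag, at 0.792 ± 0.140 and 0.699 ± 0.149 (SD, n = 4).

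**Figure D3:**
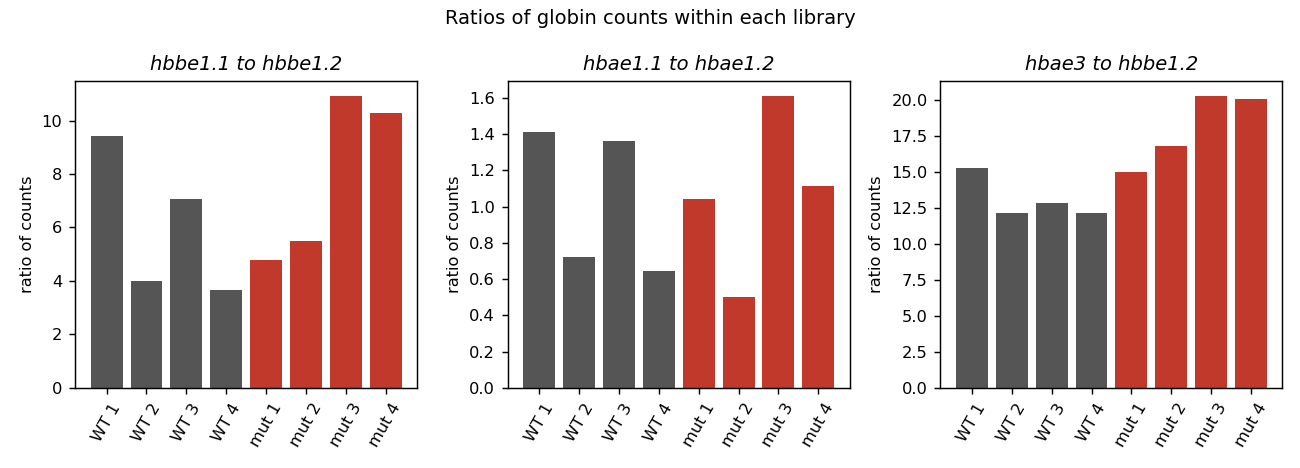
Ratios of counts between globin genes in each library, with wild types (WT) in grey and upf1 mutants (mut) in red. The ratios of hbbe1.1 to hbbe1.2 and of hbae1.1 to hbae1.2 are high in wild-type replicates 1 and 3 and mutant replicates 3 and 4, and the ratio of hbae3 to hbbe1.2 is highest in mutant replicates 3 and 4.

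Of 16 other globin genes listed, 11 had a match and 9 were tested. The 9 include mb, ngb and cygb2, which are not alpha or beta globin genes. The median log2 fold change of the 9 was 0.14, with 4 below 0. In edgeR 0 rose and 0 fell, with 2 lower and 1 higher by unadjusted p under 0.05, DESeq2 called 2 lower and 0 higher, and voom 1 lower and 0 higher. The embryonic alpha globin gene hbae1.3 had 43.4, 47.8, 51.5 and 93.5 CPM in mutants 1 to 4, against 109, 106, 101 and 79.6 CPM in wild types 1 to 4. Here too 3 mutants were below all wild types and mutant 4 was not (log2 fold change -0.74, SE 0.232, adjusted p = 0.0642). The related genes hbae1.1 and hbae1.2 had log2 fold changes of -0.46 and -0.55 (adjusted p = 0.457 and 0.186). Without mutant 4, hbae1.2 and hbae1.3 both passed as lower (edgeR adjusted p = 0.0125 and 0.00174). The gene hbbe3 had few counts, 32, 16, 12 and 11 in mutants 1 to 4 against 8, 5, 3 and 0 in wild types 1 to 4, and its adjusted p was 0.0991. Log2 fold changes were 0.19 for hbae4, 0.58 for mb and 0.22 for ngb (edgeR adjusted p = 0.692, 0.258 and 0.193). For cygb2, which was among the 2 lower by unadjusted p, it was -0.31 (edgeR adjusted p = 0.0586). The adult alpha globin genes hbaa1 and hbaa2 had 15 and 20 counts over all 8 libraries and were not tested. The adult beta globin names and the name hbbe1.3 matched no gene.

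The name HBE1, that of an embryonic beta globin gene in humans, is given to 7 identifiers, of which 5 were in the count table and 2 were tested. Both are outside the lists, were picked after symbols had been matched, and may or may not include the genes called hbbe2 and hbbe1.3. HBE1 (ENSDARG00000087390) had 82.6, 78.2, 52.9 and 111.5 CPM in mutants 1 to 4, against 114.6, 183, 156 and 142 CPM in wild types 1 to 4. Every mutant was below every wild type, the nearest being mutant 4 and wild type 1, and the gene fell (log2 fold change -0.87, SE 0.217, 95% interval -1.36 to -0.38, adjusted p = 0.0279). The call was lost without wild type 2, 3 or 4 or mutant 1 or 2 (edgeR adjusted p 0.0574 to 0.0688).

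HBE1 (ENSDARG00000045143) had 131, 125, 77.6 and 144 CPM in mutants 1 to 4, against 219, 203, 105 and 170 CPM in wild types 1 to 4, and the groups overlapped (log2 fold change -0.55, SE 0.247, adjusted p = 0.177). The alpha globin gene hbae5 had 7.36, 15.1, 2.89 and 9.46 CPM in mutants and 14.0, 8.67, 3.55 and 5.37 CPM in wild types (log2 fold change 0.14, adjusted p = 0.892). The gene hbae5 and this HBE1 gene were lowest in replicate 3 of each genotype. So was hbae3, but in wild types by a small margin, with 584 CPM in replicate 3 and 587 CPM in replicate 1. Unlike the 7 listed genes, hbae5 was highest among mutants in replicate 2.

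Of 21 listed genes for haem synthesis and its mitochondrial transport other than alas2, 20 were tested. In edgeR 0 rose and 0 fell, by unadjusted p under 0.05 there were 3 higher and 0 lower, and DESeq2 and voom each called 0 in either direction. The median log2 fold change was 0.12. The porphyrin pathway genes hmbsa and cpox had log2 fold changes of 0.34 and 0.39 (adjusted p = 0.139 and 0.154), and without wild type 2 hmbsa passed as higher (edgeR adjusted p = 0.0269). The gene fech, whose enzyme inserts iron into the ring, had 0.14 (adjusted p = 0.654). The iron importer gene of red cell mitochondria, slc25a37, had -0.41 (adjusted p = 0.316), and alas1, the form of the first enzyme found in most tissues, had -0.14 (adjusted p = 0.702). Of the first enzymes, alas2 and alas1 were both lower on average, without passing. Read against library totals alone, 4 genes of this list passed as higher and 0 as lower.

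Of 21 tested genes of the red cell membrane and skeleton outside the 7, 3 fell, 0 rose and 18 did not pass (median log2 fold change -0.12). DESeq2 called 4 lower and 2 higher, voom 3 lower and 0 higher, and 2 were higher by unadjusted p under 0.05. The genes that fell were rhcga (-0.90, adjusted p = 0.00533), tmod4 (-0.77, adjusted p = 0.0130) and rhbg (-0.41, adjusted p = 0.0214). In zebrafish rhcga and rhbg are known for ammonia transport in skin and gill, and tmod4 for capping actin filaments in skeletal muscle, so these are not red cell markers. The call of rhbg was lost without wild type 1, 3 or 4 or mutant 4 (edgeR adjusted p 0.0502 to 0.0623). With library totals alone the list's median was 0.04, with 2 lower and 2 higher. The spectrin gene sptb had a log2 fold change of -0.37 (adjusted p = 0.247) and the ankyrin gene ank1a had -0.30 (adjusted p = 0.269).

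Of 27 tested regulators of red cell formation, 0 fell, 1 rose and 26 did not pass. Among all genes tested, 5.11% fell and 9.10% rose. The median log2 fold change of the 27 was -0.11. There were 6 lower and 2 higher by unadjusted p under 0.05, DESeq2 called 4 lower and 1 higher, and voom 0 lower and 1 higher. With library totals alone 4 were higher and 0 lower, and the median turned to 0.05. The gene that rose, gfi1aa, encodes a transcription repressor of blood progenitors (3.42 ± 0.454 against 1.81 ± 0.344 CPM, log2 fold change 0.92, adjusted p = 0.00946). The red cell transcription factor gene gata1a had 2.91 ± 0.728 CPM in mutants and 3.04 ± 0.920 CPM in wild types (log2 fold change -0.06, 95% interval -0.63 to 0.51, adjusted p = 0.903). Its interval includes the hbae3 estimate, so the test does not show that gata1a was unchanged. The factor gene klf1 had a log2 fold change of -0.23 (adjusted p = 0.631) and the erythropoietin receptor gene epor had -0.32 (adjusted p = 0.370). For klf17, a Krueppel-like factor gene of the primitive red cell, mutants were below all wild types, at 4.89 ± 0.657 against 6.80 ± 0.935 CPM. Its log2 fold change was -0.47 (edgeR adjusted p = 0.0597). Of the 27 regulators, 1 lay wholly below and 1 wholly above the wild types, against 8.71% and 12.4% of all genes.

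Of 22 tested red cell enzymes, 2 rose, 3 fell and 17 did not pass, with 6 higher and 3 lower by unadjusted p under 0.05. Over all genes tested, 9.10% rose and 5.11% fell, with 16.2% higher and 13.2% lower by unadjusted p. Of the 22, 4 rose in DESeq2, 2 in voom and 6 with library totals alone, while 3, 3 and 2 fell. The carbonic anhydrase gene cahz, a marker of fish red cells, averaged 56.4 ± 7.79 CPM in mutants and 58.9 ± 5.73 CPM in wild types. Its log2 fold change was -0.06 (95% interval -0.31 to 0.19, edgeR adjusted p = 0.761). That interval holds the alas2 and slc4a1a estimates but not those of hbbe1.1, hbbe1.2, hbae3, rhag and nt5c2l1. Whether cahz differed from these genes in its response was not tested. The genes that fell were the glycolysis gene pklr, also active in liver (-0.99, adjusted p = 0.0279), the peroxidase gene prdx2 (-0.51, adjusted p = 0.0287) and the catalase gene cat (-0.43, adjusted p = 0.0474). The glutathione peroxidase gene gpx1a (0.63, adjusted p = 0.0170) and the lactate dehydrogenase gene ldha (0.50, adjusted p = 0.0152) rose. Several of these enzymes are made in many tissues. With 1 library left out, between 0 (without wild type 4 or mutant 3) and 2 of the 22 fell and between 1 (without wild type 3 or 4) and 4 (without mutant 1) rose. The cat gene was called without wild type 1 and under none of the other 7 omissions. The prdx2 call was lost without wild type 1 or 4 or mutant 1, 2 or 3, that of pklr without wild type 1, 2 or 4 or mutant 3, and that of gpx1a without wild type 3 or 4.

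Of 18 tested genes of iron uptake and storage, the iron exporter gene slc40a1 fell (-0.61, adjusted p = 0.0492) and ireb2, which encodes an iron-responsive RNA-binding protein, rose (0.34, adjusted p = 0.0229). Of all genes tested, 5.11% fell and 9.10% rose. By unadjusted p under 0.05, 5 of the list were lower and 1 higher, against 13.2% and 16.2% of all genes. In the list DESeq2 called 4 lower and 1 higher, voom 1 each way, and library totals alone gave 0 lower and 2 higher. The slc40a1 call held only without mutant 1 or 2 among 8 omissions (edgeR adjusted p up to 0.127), and that of ireb2 was lost without wild type 3 or 4 or mutant 1 or 4. Of 10 genes for loss of organelles in maturing red cells, xpo7 (0.44, adjusted p = 0.00418) and ube2o (0.49, adjusted p = 0.0159) rose and 0 fell, with 2 lower by unadjusted p under 0.05, 1 lower in DESeq2 and 0 in voom. Of 8 genes of haem scavenging and breakdown, the hemopexin gene hpxa, made by the liver, fell (-6.23, adjusted p = 5.14e-04). Levels of hpxa were 0.310 ± 0.213 CPM in mutants and 23.0 ± 15.0 CPM in wild types (SD, n = 4), so the mutant mean rests on few counts. In that list 0 rose, with 0 higher by unadjusted p under 0.05, DESeq2 or voom.

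**Figure D4:**
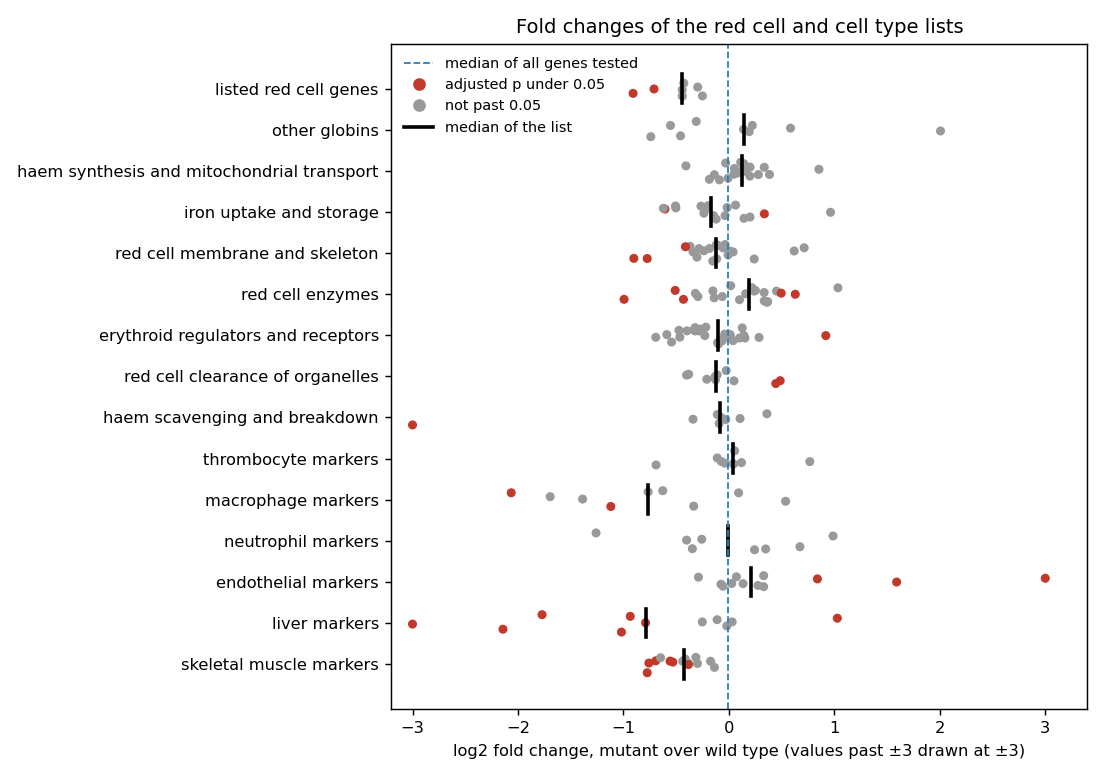
Log2 fold changes of the tested genes of each list, with list medians as black bars, genes past an adjusted p of 0.05 in red and the median of all genes tested as a dashed line; values beyond 3 in size are drawn at 3. The 7 listed red cell genes all lie below 0 (median -0.44), and so do all 14 skeletal muscle markers (median -0.43). Over all genes tested, 12041 of 23680 were below 0. Of 11 liver markers, 9 lie below 0 (median -0.79), while haem synthesis genes and red cell regulators lie on both sides of 0.

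Markers of other tissues differed between the same libraries. Among all genes tested, 5.11% fell and 9.10% rose in edgeR. Skeletal muscle markers summed to 58018 to 74591 CPM in mutants and 88333 to 113290 CPM in wild types, and 6 of 14 fell, among them mylz3 (-0.76, adjusted p = 0.00359) and tmod4, which is also in the membrane list. By unadjusted p under 0.05, 10 of the 14 were lower, against 13.2% of all genes. DESeq2 called 10 lower, voom 6, and edgeR with replicate number as a block 1. Of these markers 0 were higher by unadjusted p under 0.05, edgeR, DESeq2 or voom, and 3 fell without mutant 1 or 3. Of 11 liver markers, 6 fell and 1 rose, and their sums were 2913 to 5906 CPM in mutants and 5431 to 7378 CPM in wild types. Without mutant 1, 3 liver markers fell, and the rise, of the fibrinogen gene fgb, was lost without mutant 1 or any 1 wild type. Endothelial markers summed to 313 to 366 CPM in mutants and 231 to 254 CPM in wild types. In edgeR 3 of 12 were higher, egfl7, stab2 and tek, while kdrl had an adjusted p of 0.893. By unadjusted p under 0.05, 5 were higher, 4 in DESeq2 and 3 in voom, and 0 were lower in any of these. The sum of kdrl, cdh5 and tie1 alone overlapped between genotypes, at 95.5 to 113.9 CPM in mutants and 80.0 to 97.8 CPM in wild types. Thrombocytes share a progenitor with red cells, and their 9 markers summed to 259 to 329 CPM in mutants and 289.7 to 350.3 CPM in wild types. Most of that sum came from other listed genes than itga2b, mpl, gp1bb and gp9. Those 4 summed to 4.92 to 6.85 CPM in mutants and 5.15 to 6.18 CPM in wild types. Of the 9, 0 passed in edgeR in either direction, with 1 lower and 1 higher by unadjusted p under 0.05, 1 lower in DESeq2 and 0 in voom. The 9 macrophage markers summed to 3.13 CPM in mutant 2, against 27.8 to 33.7 CPM in the other mutants and 38.6 to 41.9 CPM in wild types. Each of the 9 was lowest in mutant 2. In edgeR 2 of them fell, csf1rb and cd74b, and 0 rose, with 3 lower and 0 higher by unadjusted p under 0.05. DESeq2 called 2 lower and voom 3, with 0 higher in each. Without mutant 2, 3 were lower and 1, marco, was higher (edgeR adjusted p = 0.00143). The 8 neutrophil markers summed to 211 CPM in mutant 2 and to at least 1151 CPM in the other mutants, a gap carried by cpa5. Without cpa5 the sum was 180.5 CPM in mutant 2, 162 to 179 CPM in the other mutants and 134 to 177 CPM in wild types. The part of these tissues in the red cell values was not tested.

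The 6 genes outside the list whose level over the 8 libraries followed the mean of the 7 most closely were taken from the 18300 genes whose log2 CPM averaged 1 or more. They were uroc1 (Pearson r = 0.984), ampd1 (0.981), si:dkey-21e2.13 (0.980), cyp3c1 (0.977), ccdc6a (0.975) and si:dkey-21e2.4 (0.975). With so many candidates and 8 libraries, values this high are given as a description only. After each genotype's mean was taken out, the same 6 had r between 0.949 and 0.970. Of these, uroc1, which encodes an enzyme of histidine breakdown, was lower in mutants (log2 fold change -0.71, adjusted p = 0.0389). Among the 7 genes themselves, r with the mean of the other 6 was highest for hbae3 (0.940) and lowest for hbbe1.1 (0.570), over the same 8 libraries.

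The authors' deposited splicing tables hold 24 events in 6 of the 7 genes, on build GRCz10, of which 3 had an FDR under 0.05 (12.5%, beside 8.84% of all 37768 events). Table headings number the 2 sets of samples without naming genotypes, so only sizes of differences in inclusion level, a share from 0 to 1, are given here. The largest difference was at an alternative donor site of nt5c2l1 on chromosome 10, minus strand, where a long exon form (17509284 to 17509442, 159 bases) and a short form (17509341 to 17509442, 102 bases) differ by 57 bases. In the authors' deposited table its inclusion level differed by 0.045 (FDR 1.12e-07). The other called events were skipped exons of slc4a1a on chromosome 3, minus strand. In the authors' deposited table, inclusion of the 98-base exon at 19936361 to 19936458 differed by 0.029 (FDR 1.22e-06). Inclusion of the 170-base exon at 19919027 to 19919196 differed by 0.024 in the authors' deposited table (FDR 0.00812).

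For hbbe1.1 and hbbe1.2 the authors' deposited table lists a retained-intron event each, over introns of 101 bases on chromosome 3, plus strand, at 54859644 to 54859744 and 54868209 to 54868309. Inclusion differed by 0.001 for each, with an FDR of 1 in the authors' deposited table. The 3 events of alas2 and the 6 of rhag were not called, and differed by at most 0.022 and 0.012 in the authors' deposited table. No event was listed for hbae3. Several of these events share exons, so they are not independent.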

How the data were processed

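Stranded polyA libraries from 8 samples (4 per genotype, per the labels) were used. The authors deposited whole-number gene counts on GRCz10. Tools named in the submitters' processing notes, without roles, include featureCounts, STAR 2.5.2b, TopHat2 2.0.13, SAMtools 1.3.1, Salmon 0.7.2, sleuth 0.28.1 and R 3.3.1. For the annotation and the strand setting of counting nothing is given in the sources used here. Reads of overlapping, antisense and near-identical globin genes may therefore be shared. The deposited splicing tables hold p-values and FDR values and a difference score of inclusion levels, per the file headers. The deposited transcript table was not used.

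Symbols came from the splicing tables (12446 genes) or a table of gene names (14122), and 5385 genes were left unnamed. The test was edgeR 4.0.16 (R 4.3.3; quasi-likelihood, TMM, filterByExpr with minimum count 10 and minimum total 15), with Benjamini-Hochberg adjustment over 23680 genes and a threshold of 0.05. CPM were computed from the counts. Code was tested on simulated data. Libraries of a genotype differed beyond sampling noise (chi-square per degree of freedom 40.4 or more), so none was merged. Their total counts, 75335048 to 96104507, leave counting error small for most genes named, and replicate spread sets their precision. Exceptions are hbbe3, hbaa1 and hbaa2, hpxa in mutants, and several macrophage markers in mutant 2, marco and cd74b among them, which had few counts.

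The genes and lists were chosen with earlier results of these data known. From each list up to 4 genes passing the threshold were named by smallest adjusted p; others were named after their values were seen. Some list names had no match, and a few matched more than 1 gene and were left out. Alternatives were DESeq2 1.42.0 size factors, upper-quartile or no scaling, scaling without globins, other filters, the DESeq2 Wald test, limma 3.58.1 voom, a replicate block and leaving out each library. Python 3.11.15 with pandas 2.3.3, numpy 2.4.6 and matplotlib 3.10.9 was used for splicing tables and figures.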

Additional observations from a re-analysis of the deposited data

Results flagged for a closer look

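In 5 of 28 sets of 4 values, the highest or lowest library lay far from its nearest neighbour relative to the whole range; chance flags about 1 in 20 groups, and these sets share libraries. The hbae3 level in mutant 4 was 679.8 CPM, against 389 to 419.8 CPM in the other mutants. Globin counts of hbbe1.1, hbbe1.2 and hbae3 made up 0.108% of all counts in the same library, against 0.0613% to 0.0647%. The hbae3 level in wild type 2 was 767 CPM, against 584 to 614 CPM in the other wild types. The rhag level in mutant 2 was 87.7 CPM, against 131 to 136 CPM in the other mutants. The ratio of alas2 to slc4a1a counts was 0.588 in mutant 2, against 0.330 to 0.367 in the other mutants.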

How the results depend on the processing

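Across 17 alternatives the number of listed genes called lower was 2 or 3 and 0 were called higher. All 7 log2 fold changes stayed below 0, and hbbe1.2 and nt5c2l1 were called under each of the 17. Leaving out 1 library moved hbae3 between -0.65 and -0.33 and rhag between -0.50 and -0.31, and DESeq2 gave -0.45 for rhag. With library totals and no scaling factor, 607 genes were lower and 4263 higher; the median over all genes then moved from -0.01 to 0.15 and that of the 7 genes to -0.29. The DESeq2 Wald test called 2105 genes lower. Over the 8 omissions, 671 (without wild type 3) to 1266 (without wild type 2) genes were lower and 1419 to 2255 higher. Without wild type 4 or mutant 1 the number lower was 672 and 681. Same-numbered samples did not deviate together (r = 0.0228, 0.0345, -0.0670 and -0.0510). Because the clutch of a replicate is not given, this does not settle whether they were paired. The replicate block gave 612 genes lower and 1307 higher; of the HBE1 genes, ENSDARG00000045143 at -0.53 then passed (edgeR adjusted p = 0.0436) and ENSDARG00000087390 at -0.90 did not (0.0583). Of 476 comparisons of the other lists' counts with an alternative, 68 differed from the main count by over 1.5 times and 408 did not. The causes were not tested. The 3 splicing events also passed an FDR of 0.01.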
